A study of Mus musculus with 27 samples.

Results

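The genes described here are the solute carriers that move sugars, amino acids, small peptides and monocarboxylates across cell membranes, followed in the whole colon wall of mice that develop colitis because they lack interleukin 10. They were taken by symbol alone: every gene whose annotated symbol starts with Slc1a, Slc2a, Slc3a, Slc5a, Slc6a, Slc7a, Slc15a, Slc16a, Slc36a, Slc37a, Slc38a or Slc43a followed by a digit. This gave 110 of the 18193 genes on the array that a probe set with a single gene symbol names, in 12 families. The amino acid families Slc6a and Slc7a contributed 21 and 16 genes, and Slc38a, Slc1a, Slc36a, Slc43a and Slc3a contributed 9, 7, 5, 3 and 2. The sugar families Slc5a, Slc2a and Slc37a contributed 13, 12 and 4 genes, the monocarboxylate family Slc16a 13 and the peptide family Slc15a 5. The Slc3a genes, Slc3a1 and Slc3a2, encode heavy chains that pair with carriers. The symbol rule also took in 4 genes that are neither carriers nor heavy chains of carriers: the pseudogene Slc2a4rg-ps and the overlapping or opposite-strand genes Slc7a6os, Slc36a1os and Slc6a19os.

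Il10 knockout mice kept under conventional conditions (labelled CC, a code read by elimination), Il10 knockout mice kept under specific pathogen free conditions (SPF) and wild-type mice kept under conventional conditions (WT) were sampled at 7, 9 and 12 weeks of age. Each of the 9 groups holds 3 arrays of full-thickness colon, 27 in all, chosen by the submitters for colon length and damage. SPF wild types are not among the groups, so a difference between SPF knockouts and wild types joins genotype and housing. The labels give neither the strain nor the knockout allele, and do not say whether an array holds 1 animal or a pool, so p-values measure only the spread between these samples, which may be technical. Values are the deposited log2 signals, in which a difference of 1 is a doubling, and precision is limited by having 3 arrays a group. A gene was called changed where limma's moderated test, fitted to all 27 arrays, gave a p under 0.05 once adjusted by Benjamini-Hochberg for all 18193 genes, and each ± on a difference is its standard error. The tissue is a mixture of epithelium, muscle, nerve and immune cells, so fewer cells of a type and less RNA per cell cannot be told apart.

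Solute carriers share a name because they move molecules, not because they share ancestry. In the large intestine the lining cells take up the short-chain fatty acids that bacteria make, through the proton-coupled monocarboxylate carrier MCT1 (Slc16a1) and the sodium-coupled carrier SMCT1 (Slc5a8), and burn butyrate as fuel. Immune cells that enter an inflamed gut rely on glycolysis and export lactate through MCT4 (Slc16a3), and dividing cells import essential amino acids through LAT1 (Slc7a5), which works only when paired with the heavy chain 4F2hc (Slc3a2). The same heavy chain carries xCT (Slc7a11), which imports cystine for glutathione.

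Against wild types of the same age, the following carriers changed in both conventional knockouts at 9 weeks and SPF knockouts at 12 weeks. The lysosomal peptide and histidine carrier Slc15a3, the sodium-coupled sugar carrier Slc5a9, the lactate exporter Slc16a3, and the amino acid carriers Slc7a5 and Slc7a1 rose. The sugar phosphate antiporter Slc37a2, the peptide carrier Slc15a1, the serotonin carrier Slc6a4, the amino acid carrier Slc6a14, the short-chain fatty acid carriers Slc16a1 and Slc5a8 and the insulin-responsive glucose carrier Slc2a4 fell. At 9 weeks 34 members were called in conventional knockouts (12 higher, 22 lower), which is 30.9% of the 110 against 24% of all genes (14.2% higher, 9.86% lower). At 12 weeks 39 were called in SPF knockouts (13 higher, 26 lower), or 35.5% against 34.8% of all genes (18.2% higher, 16.6% lower). The median difference over the members was -0.025 and -0.049, beside 0.0 and 0.02 over all genes. By direction, 10.9% of the members were higher and 20% lower at 9 weeks, and 11.8% and 23.6% at 12 weeks, so in both the lower share exceeded that of the array and the higher share was below it. The total share was near that of the array at 12 weeks only. These shares were described and not tested. Leaving out conventional 9-week replicate 1 or 2, or wild-type 9-week replicate 1 or 2, gave 15, 22, 20 and 21 calls at 9 weeks, and leaving out SPF 12-week replicate 1 gave 25 at 12 weeks.

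**Figure D1:**
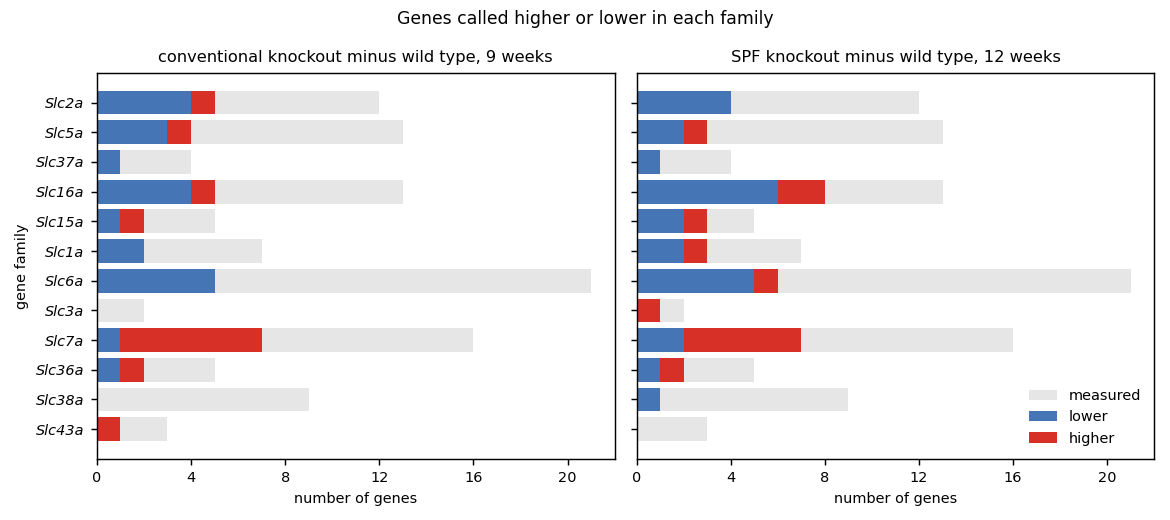
Number of genes called higher (red) or lower (blue) than wild type in each family, over the number measured (grey), for conventional knockouts at 9 weeks (left) and SPF knockouts at 12 weeks (right). In Slc7a, 6 of 16 genes were higher at 9 weeks and 5 at 12, while the 5 Slc6a genes called at 9 weeks were all lower.

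The 2 comparisons share no array. Of the 34 members called at 9 weeks, 22 (64.7%) were also called at 12 weeks, and these make up 56.4% of the 39. All 22 had the same direction, 7 higher and 15 lower, and 32 of the 34 (94.1%) had the same sign. Over all genes the 2 lists shared 3333, which is 76.2% of the 9-week and 52.7% of the 12-week calls. Of these, 3330 had the same direction, and 97.2% of all 9-week calls had the same sign at 12 weeks. Across the 110 members the 2 sets of differences had a Pearson r of 0.828, beside 0.861 across all genes; both are descriptions across genes, which are not independent replicates. Compared directly, conventional knockouts at 9 weeks and SPF knockouts at 12 weeks differed in none of the members by limma's test, in which 0.011% of all genes were called and 10 members had an unadjusted p under 0.05. Against these 0 calls with all arrays, 8 members were called without SPF 12-week replicate 2.

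**Figure D2:**
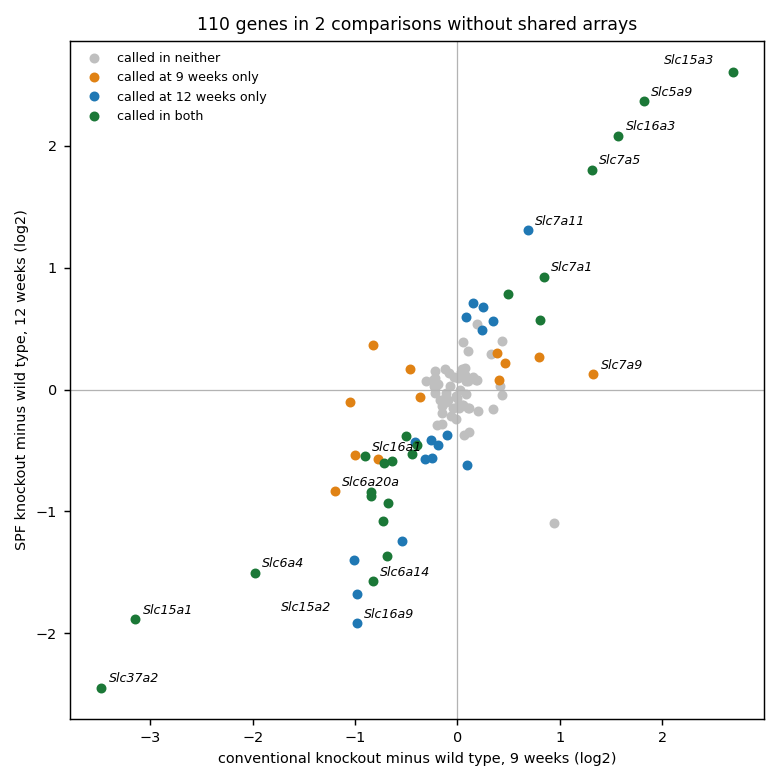
Each point is 1 of the 110 genes, placed by its log2 difference from wild type in conventional knockouts at 9 weeks (horizontal) and in SPF knockouts at 12 weeks (vertical); colour gives where it was called. Slc15a3, Slc5a9, Slc16a3 and Slc7a5 lie at the upper right, Slc37a2 and Slc15a1 at the lower left, and Slc7a9 is high on the 9-week axis only.

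Over the 9 comparisons between kinds of mice at 1 age, 56 members (50.9%) were called at least once and 54 in none, beside 8215 of all genes (45.2%) called at least once. Against wild types 53 were called, 20 only as higher, 33 only as lower and 0 as both. In Slc16a, the monocarboxylate carriers, 10 of 13 were called, in Slc7a, the cationic and large neutral amino acid carriers, 11 of 16, and in Slc1a, the glutamate and glutamine carriers, 5 of 7. In Slc38a, the sodium-coupled neutral amino acid carriers, 1 of 9 was called. The mean signal of 47 members lay below a fixed cutoff of 5 on the log2 scale.

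**Figure D3:**
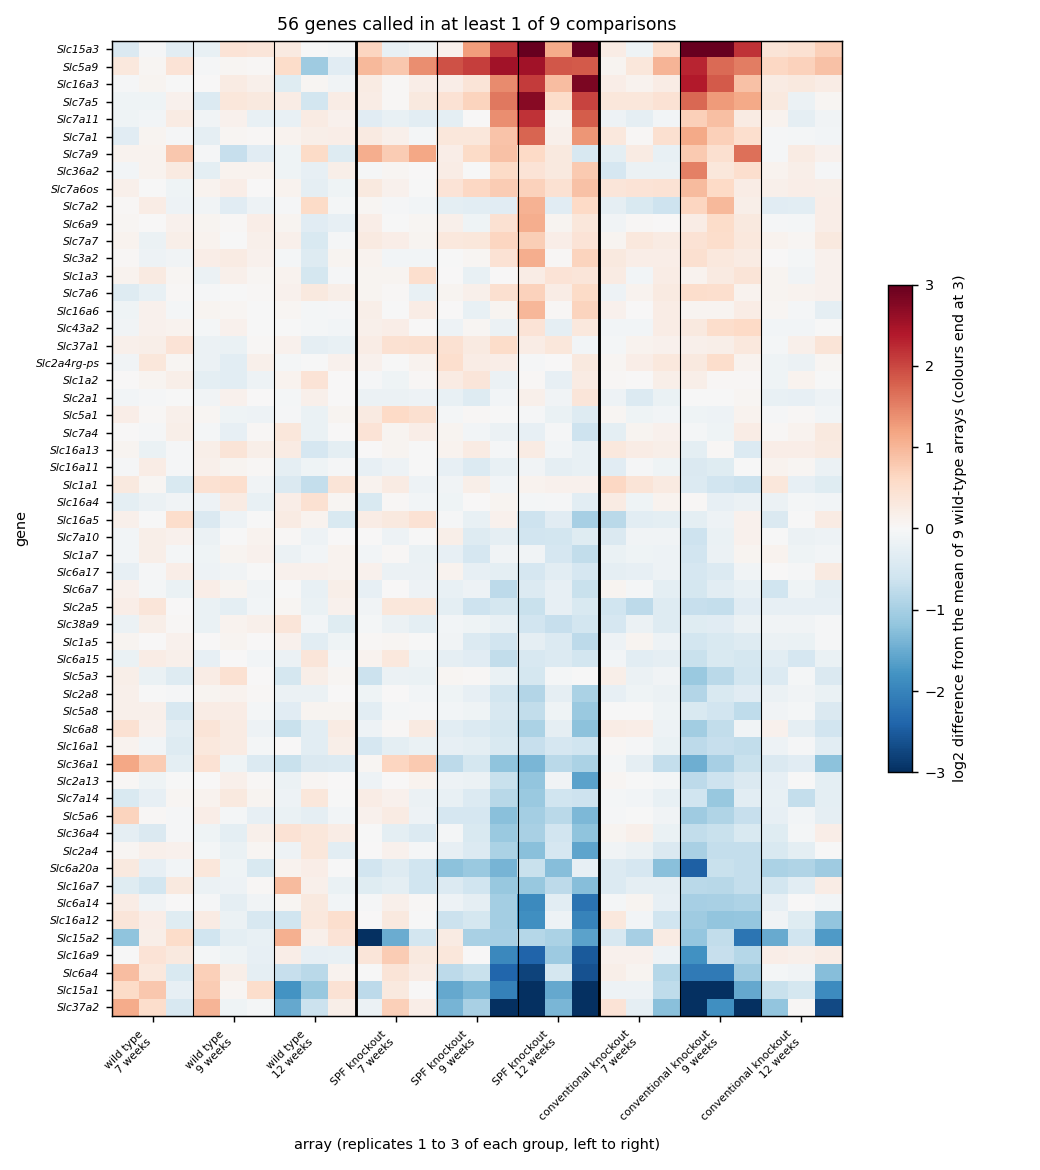
Log2 difference of each of the 27 arrays (columns, replicates 1 to 3 within each group) from the mean of the 9 wild-type arrays, for the 56 genes called at least once; colours end at 3 either way. The strongest colours lie in the conventional 9-week arrays, in SPF 12-week replicates 1 and 3 and in SPF 9-week replicate 3, and SPF 12-week replicate 2 is paler.

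The arrays within the SPF groups differed, and this touches every result on them. The neutrophil gene S100a8 read 12.06, 7.41 and 13.34 on SPF 12-week replicates 1 to 3, and 3.84, 4.63 and 9.66 on the SPF 9-week replicates. It read 10.55, 11.08 and 9.14 on the conventional 9-week arrays and between 3.20 and 3.71 on the 9 wild-type arrays. SPF 12-week replicate 2 and SPF 9-week replicates 1 and 2 thus had lower S100a8 than their group mates, and the members below often had the same order.

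Promoter sequences of 3 members that rose are shown because these genes are known to respond to nutrient or oxygen shortage: the cystine carrier Slc7a11, its heavy chain Slc3a2 and the lactate exporter Slc16a3. Each run is the 250 bases before the RefSeq start (GRCm38.p6), written 5′ to 3′ on the gene's own strand, with capitals marking matches on either strand to TGATGNAA, the core letters of the amino acid response element, in Slc7a11, or to ACGTG, the core of the hypoxia response element, in Slc3a2 and Slc16a3. They lie at chr3:50443614-50443863 on the minus strand, chr19:8713898-8714147 on the minus strand and chr11:120948817-120949066 on the plus strand.

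Slc7a11: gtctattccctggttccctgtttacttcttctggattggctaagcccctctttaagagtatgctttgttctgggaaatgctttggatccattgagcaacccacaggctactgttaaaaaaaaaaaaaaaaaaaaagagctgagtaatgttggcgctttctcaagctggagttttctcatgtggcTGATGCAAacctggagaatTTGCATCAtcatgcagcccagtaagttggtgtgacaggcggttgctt
Slc3a2: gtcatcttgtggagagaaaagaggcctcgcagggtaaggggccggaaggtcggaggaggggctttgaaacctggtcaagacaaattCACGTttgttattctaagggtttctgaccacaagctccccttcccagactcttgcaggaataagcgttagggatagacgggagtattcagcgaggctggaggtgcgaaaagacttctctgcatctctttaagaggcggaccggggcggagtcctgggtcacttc
Slc16a3: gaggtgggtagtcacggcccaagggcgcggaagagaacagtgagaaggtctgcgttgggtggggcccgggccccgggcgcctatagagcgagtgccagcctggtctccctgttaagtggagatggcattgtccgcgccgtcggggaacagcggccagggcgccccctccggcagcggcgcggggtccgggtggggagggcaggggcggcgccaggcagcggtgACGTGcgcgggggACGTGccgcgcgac

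The Slc7a11 window holds 2 matches to TGATGNAA, the left one as spelled and the right one as its reverse complement, the Slc3a2 window 1 match to ACGTG and the Slc16a3 window 2. Of the 32851 promoter windows in the table, 3.45% hold TGATGNAA and 16.6% hold ACGTG. Of the 82 members with a window, 3 hold the first (Slc6a21, Slc7a11 and Slc7a7) and 22 the second, or 3.66% and 26.8%. The shares over all windows count windows and are not limited to genes on the array, while those of the members count genes. They are thus not shares of like sets, and no excess in the members was tested. The windows of Slc37a2 and Slc15a1, the 2 members with the greatest falls at 9 weeks, hold neither run of letters. ACGTG also lies in windows of members that fell, among them Slc16a1, Slc15a2, Slc36a1 and Slc7a14, and in that of Slc7a6, which rose. The risers Slc15a3, Slc5a9, Slc7a5 and Slc7a1 are not among the members with either match, though only 82 members have a window. Whether a match goes with the direction of change was not tested. A match is a description of letters in a window, and no binding was measured here.

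Among the lactate and short-chain fatty acid carriers, the exporter and the importers moved in opposite directions. Slc16a3, which encodes MCT4, read 6.38, 5.84 and 4.86 on the conventional 9-week arrays and 4.0, 4.23 and 4.14 on the wild-type arrays of that age. All conventional arrays lay above all wild-type arrays. The means were 5.69 ± 0.77 and 4.12 ± 0.12 (SD, n = 3), a difference of 1.57 ± 0.35 (adjusted p = 0.00327, limma). At 12 weeks Slc16a3 read 6.08, 4.91 and 6.81 in SPF knockouts against 3.64, 4.04 and 3.88 in wild types, a rise of 2.08 ± 0.35 (adjusted p = 0.000194). Slc16a3 kept its call in both comparisons whichever array was left out, with a highest adjusted p of 0.0355 and 0.00216. In conventional knockouts at 12 weeks it read 4.25, 4.28 and 4.21, above the wild-type arrays of that age but not called.

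Slc16a1, the butyrate and lactate carrier MCT1, ran the other way. It read 10.79, 10.88 and 10.83 in conventional knockouts at 9 weeks and 11.88, 11.82 and 11.52 in wild types, without overlap. The fall by 0.91 ± 0.13 on the log2 scale had an adjusted p of 0.000125 (limma) and kept its call with each array left out. In SPF knockouts Slc16a1 was lower than in wild types at 9 weeks, by -0.51 ± 0.13 (adjusted p = 0.0195), and at 12 weeks, by -0.55 ± 0.13 (adjusted p = 0.0033). The 9-week SPF call was lost without SPF replicate 3 (-0.45, adjusted p = 0.129, limma) or wild-type replicate 1 or 2. The 12-week SPF call stood with each array left out. A second, much dimmer probe set for Slc16a1, with a mean of 3.58 over all arrays against 11.33 for the one used, differed by -0.337 at 9 weeks in conventional and by 0.25 at 12 weeks in SPF knockouts; when probe sets of a gene were averaged the SPF calls at both ages were lost.

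Slc5a8, the sodium-coupled butyrate carrier SMCT1, read 10.18, 10.07 and 9.88 in conventional knockouts at 9 weeks and 10.87, 10.85 and 10.57 in wild types, again without overlap. It fell by 0.72 ± 0.20 (adjusted p = 0.0123, limma), a call that stood with each array left out. At 12 weeks Slc5a8 read 9.89, 10.51 and 9.52 in SPF knockouts and 10.31, 10.72 and 10.71 in wild types, so SPF replicate 2 lay within the wild-type range. That fall by 0.60 ± 0.20 (adjusted p = 0.0222) lost its call when SPF replicate 1 or 3 or wild-type replicate 2 or 3 was left out, and without SPF replicate 3 it was -0.38 (adjusted p = 0.179).

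Of the other monocarboxylate carriers, Slc16a9, a carnitine and creatine carrier, showed the greatest fall at 12 weeks. Its level was 5.13, 6.45 and 5.03 in SPF knockouts and 7.75, 7.30 and 7.32 in wild types, a difference of -1.92 ± 0.41 (adjusted p = 0.00108, limma) that kept its call with each array left out. In conventional knockouts at 9 weeks it read 5.72, 6.85 and 6.68 against 7.48, 7.41 and 7.30, and its difference of -0.98 ± 0.41 missed the threshold (adjusted p = 0.0845). Slc16a7, the high-affinity pyruvate carrier MCT2, fell in both, with differences of -0.69 ± 0.24 and -1.36 ± 0.24 (adjusted p = 0.044 and 0.000292). Slc16a6, a ketone body carrier, rose by 0.59 ± 0.16 at 12 weeks in SPF knockouts (adjusted p = 0.00544), and differed by 0.09 ± 0.16 at 9 weeks in conventional knockouts. Its 12-week levels were 4.52, 3.56 and 4.19 in SPF knockouts and 3.57, 3.45 and 3.47 in wild types. SPF replicate 2 thus lay inside the wild-type range, and the mean of Slc16a6 over all arrays was a low 3.61. Slc16a12, Slc16a5 and Slc16a4 were called lower in SPF knockouts at 12 weeks, and Slc16a11 and Slc16a13 in conventional knockouts at 9 weeks. Slc16a12 read 5.07, 4.94 and 4.97 in conventional knockouts at 9 weeks and 6.39, 5.96 and 5.66 in wild types, without overlap but not called. At 12 weeks it read 4.29, 5.99 and 4.13 in SPF knockouts against 5.53, 6.44 and 6.64, with replicate 2 inside the wild-type range.

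These carriers have partners at the membrane. Of 9 measured partner genes, 1 was called higher and 2 lower in conventional knockouts at 9 weeks, and 2 higher and 3 lower in SPF knockouts at 12 weeks. Embigin (Emb), the ancillary protein of MCT2, rose by 1.67 ± 0.37 and 2.03 ± 0.37 (adjusted p = 0.0029 and 0.00032, limma), while Slc16a7 itself fell. Txnip, which lowers glucose uptake by drawing glucose carriers off the surface, fell, with differences of -1.02 ± 0.19 and -1.31 ± 0.19. The list of glycolysis and lactate genes had 8 of 16 measured members higher and 1 lower at 9 weeks, and 12 higher and 2 lower at 12 weeks. Its hexokinase gene Hk2 rose by 1.40 ± 0.22 and 1.90 ± 0.22 (adjusted p = 0.00019 and 5.6e-06), beside the rise of Slc16a3. The list medians were 0.359 and 0.584, against 0.0 and 0.02 over all genes.

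In the glucose and fructose family Slc2a, 4 of 12 genes were lower in each of the 2 comparisons, and the 1 higher was the pseudogene Slc2a4rg-ps at 9 weeks. The fructose carrier Slc2a5 was among the lower ones in both, with differences of -0.40 and -0.46 (adjusted p = 0.0479 and 0.017, limma). Its 9-week call was lost in 16 of the 27 single omissions. The 12-week call was lost without SPF replicate 1 or wild-type replicate 1 or 3. In the sodium-coupled family Slc5a, 1 of 13 was higher in each, and 3 were lower at 9 weeks and 2 at 12. Slc5a9, which encodes the mannose and fructose carrier SGLT4, read 7.39, 6.81 and 6.65 in conventional knockouts at 9 weeks and 5.07, 5.17 and 5.14 in wild types. It rose by 1.82 ± 0.30 (adjusted p = 0.000301, limma). In SPF knockouts it read 7.03, 7.18 and 7.64 at 9 weeks and 7.64, 6.98 and 6.96 at 12 weeks, above each wild-type array of the same age and with SPF 12-week replicate 2 no lower than replicate 3. The SPF differences were 2.15 ± 0.30 at 9 weeks (adjusted p = 0.00022) and 2.37 ± 0.30 at 12 weeks (adjusted p = 1.53e-05). Slc5a9 was the 1 named member whose SPF call at 9 weeks stood whichever array was left out, and its other 3 probe sets had differences from 1.311 to 2.356 in these 3 comparisons. At 7 weeks the SPF knockouts read 6.07, 5.92 and 6.50 and the wild types 5.42, 5.17 and 5.53, without overlap but not called (0.79 ± 0.30, adjusted p = 0.755). In conventional knockouts at 12 weeks Slc5a9 read 5.74, 5.80 and 5.99, a difference of 1.02 ± 0.30 that missed the threshold (adjusted p = 0.106).

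Slc37a2, an antiporter of glucose 6-phosphate and phosphate in the endoplasmic reticulum membrane, had the greatest fall of all members. It read 4.76, 7.22 and 5.63 in conventional knockouts at 9 weeks and 10.09, 8.95 and 9.00 in wild types. It was thus lower on every conventional array, by -3.48 ± 0.77 (adjusted p = 0.00278, limma; 0.0283 at most with 1 array left out). At 12 weeks Slc37a2 read 5.0, 7.71 and 5.16 in SPF knockouts and 7.54, 8.43 and 9.24 in wild types, with SPF replicate 2 inside the wild-type range. The difference of -2.45 ± 0.77 there (adjusted p = 0.0159) was lost without SPF replicate 1, SPF replicate 3 or wild-type replicate 3, and without SPF replicate 1 the difference was -1.97 (adjusted p = 0.0926).

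Of the glucose carriers GLUT1, GLUT2, GLUT3 and SGLT1, 0 of 4 were called against wild types in conventional knockouts at 9 weeks or SPF knockouts at 12 weeks by limma. Slc2a1, the basal glucose carrier GLUT1, read 10.28, 10.27 and 10.35 in conventional knockouts at 9 weeks against 10.18, 10.41 and 10.29 in wild types, a difference of 0.01 ± 0.10. It differed by 0.09 ± 0.10 in SPF knockouts at 12 weeks, though it was called between conventional and SPF knockouts of that age and in the change of their difference from 9 to 12 weeks (-0.58, adjusted p = 0.0116). Slc2a3, the high-affinity glucose carrier GLUT3 of neurons and leukocytes, differed by 0.19 ± 0.30 and 0.54 ± 0.30 (adjusted p = 0.702 and 0.178, limma). At 12 weeks it read 6.5, 5.3 and 6.92 in SPF knockouts and 6.01, 5.5 and 5.61 in wild types, where SPF replicates 1 and 3 lay above the wild types and replicate 2 below them. Slc5a1, the sodium-glucose carrier SGLT1, differed by 0.01 ± 0.11 and -0.15 ± 0.11. Slc2a2, the carrier GLUT2 of liver and small intestine, stayed between 2.76 and 3.31 on all 27 arrays, near the dim end of the array. A p that misses the threshold does not show that these levels were alike.

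Slc2a4, the insulin-responsive carrier GLUT4 of muscle and fat, read 6.31, 6.57 and 6.58 in conventional knockouts at 9 weeks and 7.23, 7.09 and 7.34 in wild types. It fell there, by -0.73 ± 0.21, and in SPF knockouts at 12 weeks, by -1.08 ± 0.21 (adjusted p = 0.0152 and 0.000569, limma). Smooth muscle markers fell beside it: 6 of 8 in the first comparison and 8 of 8 in the second. Their mean log2 level ran from 11.01 to 11.16 in conventional knockouts at 9 weeks and from 11.71 to 11.87 in wild types, and from 9.80 to 11.14 in SPF knockouts at 12 weeks against 11.53 to 11.61. Their part in the fall of Slc2a4 was not tested. The myo-inositol carriers Slc5a3 and Slc2a13 and the intracellular glucose carrier Slc2a8 also fell at 9 weeks in conventional knockouts, with differences of -1.05 ± 0.20, -0.67 ± 0.23 and -0.64 ± 0.14. Slc2a13 and Slc2a8 fell again in SPF knockouts at 12 weeks, with differences of -0.93 ± 0.23 and -0.59 ± 0.14, where Slc5a3 differed by -0.10 ± 0.20. Slc5a6, the vitamin carrier that takes up biotin and pantothenate, fell in both comparisons, with differences of -0.84 ± 0.19 and -0.87 ± 0.19 (adjusted p = 0.00343 and 0.00134).

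The peptide family held both a rise and a fall of several fold. Slc15a3, found in lysosomes of macrophages and dendritic cells, read 7.19, 7.05 and 6.07 in conventional knockouts at 9 weeks and 3.68, 4.30 and 4.27 in wild types. Every knockout array lay above every wild-type array, and the means were 6.77 ± 0.61 and 4.08 ± 0.35 (SD, n = 3). The difference was 2.69 ± 0.48 (adjusted p = 0.000654, limma). At 12 weeks Slc15a3 read 7.12, 5.02 and 7.61 in SPF knockouts and 4.17, 3.89 and 3.85 in wild types, a rise of 2.61 ± 0.48 (adjusted p = 0.000374). Both calls stood with each array left out, and without SPF 12-week replicate 3 the rise was 2.10. Conventional knockouts at 12 weeks read 4.28, 4.36 and 4.62.

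Markers of macrophages and monocytes moved with Slc15a3 and Slc16a3. In each of the 2 comparisons 9 of 10 were called higher and 0 lower, with medians of 1.571 and 1.639. Their mean log2 level ran from 8.38 to 8.90 in conventional knockouts at 9 weeks against 7.17 to 7.64 in wild types, and from 8.16 to 9.25 in SPF knockouts at 12 weeks against 7.15 to 7.39. Of 7 measured neutrophil markers 2 and 4 were higher, and of 7 T cell markers 4 and 5. The part of these cells in the rises of Slc15a3, Slc16a3 and Slc7a5 was not tested.

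Slc15a1, the peptide carrier PEPT1 of the gut lining, read 4.13, 4.39 and 6.01 in conventional knockouts at 9 weeks and 8.31, 7.60 and 8.06 in wild types, without overlap. The difference of -3.15 ± 0.55 (adjusted p = 0.000546, limma) stood with each array left out. In SPF knockouts at 9 weeks Slc15a1 read 6.01, 6.18 and 5.50, again below every wild-type array (-2.10 ± 0.55, adjusted p = 0.0186). At 12 weeks the wild types themselves were spread, at 5.75, 6.39 and 7.97, and SPF knockouts read 3.92, 6.0 and 4.54, so that the groups overlapped. That difference of -1.89 ± 0.55 (adjusted p = 0.0109) lost its call without SPF replicate 1 or wild-type replicate 3, and was -1.25 (adjusted p = 0.0924) without the latter. The 9-week SPF call was lost without SPF replicate 3 or wild-type replicate 1 or 3, with -1.90 (adjusted p = 0.118) in the first case. Slc15a2, the higher-affinity peptide carrier PEPT2, fell at 12 weeks in SPF knockouts, with a difference of -1.68 ± 0.57 (adjusted p = 0.0251), and lost that call without SPF replicate 3 (-1.45, adjusted p = 0.102) or wild-type replicate 1. It read 6.54, 6.44 and 5.8 in these SPF knockouts and 8.46, 7.56 and 7.8 in wild types. Conventional knockouts of that age read 5.88, 6.81 and 5.69, also below every wild-type array, but were not called.

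Of the 16 Slc7a genes, 6 were higher and 1 lower in conventional knockouts at 9 weeks, and 5 higher and 2 lower in SPF knockouts at 12 weeks; Slc7a6os, no carrier, is among the higher ones in both, and Slc7a14 among the lower ones. Slc7a5, the light chain LAT1 for leucine, tryptophan and other large neutral amino acids, read 7.43, 6.99 and 6.83 in conventional knockouts at 9 weeks and 5.29, 6.04 and 5.99 in wild types, without overlap. It rose by 1.31 ± 0.37 (adjusted p = 0.0123, limma), but the call was lost without conventional replicate 1 or wild-type replicate 1, the former giving 1.14 (adjusted p = 0.0744). At 12 weeks Slc7a5 read 8.44, 6.26 and 7.72 in SPF knockouts and 5.93, 5.15 and 5.92 in wild types. That rise of 1.81 ± 0.37 (adjusted p = 0.000738) stood with each array left out.

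Its heavy chain Slc3a2 was called in SPF knockouts at 12 weeks and not in conventional knockouts at 9 weeks. At 12 weeks it read 9.90, 8.84 and 9.46 in SPF knockouts and 8.74, 8.42 and 8.89 in wild types, where SPF replicate 2 lay inside the wild-type range. It rose by 0.71 ± 0.17 (adjusted p = 0.00286, limma), a call that stood with each array left out. In conventional knockouts at 9 weeks Slc3a2 read 9.27, 9.11 and 9.04 against 8.99, 9.05 and 8.93, a difference of 0.15 ± 0.17 (adjusted p = 0.584). Compared directly, Slc3a2 was not called between conventional knockouts at 9 weeks and SPF knockouts at 12 weeks (-0.26 ± 0.17, adjusted p = 0.692).

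Slc7a11, the cystine carrier xCT, read 5.56, 3.51 and 5.22 in SPF knockouts at 12 weeks and 3.18, 3.64 and 3.54 in wild types. Replicates 1 and 3 were high and replicate 2 lay among the wild types. The rise of 1.31 ± 0.38 (adjusted p = 0.00951, limma) was lost without SPF replicate 1 (0.91, adjusted p = 0.0874) or SPF replicate 3. At 9 weeks Slc7a11 read 4.12, 4.31 and 3.64 in conventional knockouts against 3.29, 3.54 and 3.18, a difference of 0.69 ± 0.38 that missed the threshold (adjusted p = 0.199). SPF knockouts of that age read 3.10, 3.42 and 4.79, where the array with high S100a8 was again the high one. A second Slc7a11 probe set differed by 1.468 at 9 weeks in conventional and by 1.501 at 12 weeks in SPF knockouts.

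Slc7a1, the arginine and lysine carrier CAT1, rose by 0.85 ± 0.26 in conventional knockouts at 9 weeks and by 0.93 ± 0.26 in SPF knockouts at 12 weeks (adjusted p = 0.0202 and 0.00757, limma). Its first call was lost without conventional replicate 1 (0.67, adjusted p = 0.128) or wild-type replicate 1, its second without SPF replicate 1 (0.59, adjusted p = 0.0827). Slc7a2, the related carrier CAT2, rose at 9 weeks in conventional knockouts by 0.80 ± 0.25 (adjusted p = 0.0231). Slc7a7, the light chain y+LAT1 that exports cationic amino acids, rose by 0.56 ± 0.14 in SPF knockouts at 12 weeks (adjusted p = 0.00439). Slc7a8, the light chain LAT2, differed by -0.20 ± 0.15 and -0.29 ± 0.15 in the 2 comparisons and was not called.

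Slc7a9, the light chain b0,+AT that takes up cystine and cationic amino acids, was called in 1 of the 2 comparisons. It read 7.77, 7.45 and 8.63 in conventional knockouts at 9 weeks and 6.95, 6.29 and 6.63 in wild types, a rise of 1.33 ± 0.30 (adjusted p = 0.00345, limma) that stood with each array left out. In SPF knockouts at 12 weeks it read 7.58, 7.28 and 6.51 against 6.86, 7.55 and 6.59, a difference of 0.13 ± 0.30. SPF knockouts at 9 weeks read 7.19, 7.56 and 7.86, above every wild-type array of that age but not called. At 7 weeks Slc7a9 read 8.08, 7.75 and 8.13 in SPF knockouts and 7.08, 7.09 and 7.78 in wild types, also not called. Its heavy chain Slc3a1, the protein rBAT, differed by 0.94 ± 0.46 and by -1.09 ± 0.46, neither called (adjusted p = 0.142 and 0.0682).

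Genes of the response to amino acid and cystine shortage moved beside these carriers. Of 18, 8 were higher and 1 lower in conventional knockouts at 9 weeks, and 12 higher and 3 lower in SPF knockouts at 12 weeks, with medians of 0.543 and 1.102. The serine synthesis genes Phgdh and Psat1 rose by 2.11 ± 0.35 and 2.53 ± 0.45 at 9 weeks. Asparagine synthetase (Asns) read 10.62, 8.86 and 10.07 in SPF knockouts at 12 weeks, with replicate 2 lowest as for Slc7a11. The members that fell included Ddit3, a stress transcription factor, with differences of -0.46 ± 0.12 and -0.68 ± 0.12. Among 11 enzymes that use the carried amino acids, 4 were higher and 1 lower at 9 weeks and 6 higher and 1 lower at 12. The tryptophan-degrading Ido1 rose by 5.38 ± 0.56 and 4.78 ± 0.56 and the arginine-using Nos2 by 2.73 ± 0.45 and 3.01 ± 0.45.

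Carriers of the Slc6a family fell where they were called, apart from the glycine carrier Slc6a9, which rose by 0.68 ± 0.18 in SPF knockouts at 12 weeks (adjusted p = 0.00535, limma). Slc6a14, a concentrating carrier of neutral and cationic amino acids, read 10.42, 10.44 and 10.48 in conventional knockouts at 9 weeks and 11.37, 11.14 and 11.30 in wild types. The groups did not overlap, yet the adjusted p of the difference of -0.82 ± 0.29 was 0.0441 with the spread estimated over all groups. It lost the call in 14 of the 27 single omissions, and the adjusted p was 0.12 without conventional replicate 1. At 12 weeks Slc6a14 read 9.50, 11.08 and 9.19 in SPF knockouts and 11.46, 11.71 and 11.32 in wild types. That difference of -1.57 ± 0.29 (adjusted p = 0.000396) stood with each array left out, and a second probe set gave -1.422 and -1.538 in the 2 comparisons.

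Slc6a4, the serotonin carrier, read 4.51, 4.52 and 5.57 in conventional knockouts at 9 weeks and 7.36, 6.81 and 6.37 in wild types, without overlap. It fell by 1.98 ± 0.53 (adjusted p = 0.00994, limma). The call was lost without conventional replicate 1 (-1.80, adjusted p = 0.0556) or wild-type replicate 1. In SPF knockouts at 12 weeks it read 3.86, 6.11 and 4.03 against 5.94, 5.83 and 6.74, where SPF replicate 2 lay within the wild-type range. That fall by 1.50 ± 0.53 (adjusted p = 0.0321) was lost without SPF replicate 1 or 3 or wild-type replicate 3, with an adjusted p of 0.174 in the first case. Enteroendocrine markers, among them the serotonin synthesis gene Tph1, had 6 of 7 lower in both comparisons. Their mean log2 level ran from 6.94 to 7.76 in conventional knockouts at 9 weeks against 8.41 to 8.70, and from 5.96 to 8.01 in SPF knockouts at 12 weeks against 8.39 to 8.92. Their part in the fall of Slc6a4 was not tested.

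Slc6a20a, the proline carrier SIT1, was called lower in knockouts of both housings at 9 weeks, by -1.20 ± 0.33 in conventional and -1.16 ± 0.33 in SPF animals (adjusted p = 0.0124 and 0.0289, limma). In the conventional group replicate 1 read 3.91 and the others 5.69 and 5.65, and without it the difference was -0.61 (adjusted p = 0.125). The conventional call was also lost without wild-type replicate 1. The SPF call was lost without SPF replicate 3 (adjusted p = 0.146) or wild-type replicate 1 or 2. At 12 weeks Slc6a20a read 5.41, 5.47 and 5.3 in conventional and 5.69, 5.08 and 6.11 in SPF knockouts. Wild types of that age read 6.46, 6.55 and 6.36. At 7 and at 12 weeks Slc6a20a lay lower on every knockout array than on every wild-type array of the same age, but was not called. Its near copy Slc6a20b has its own symbol, and probes that match both could not be told apart here. Slc6a8, the creatine carrier, fell by 0.78 ± 0.27 in conventional knockouts at 9 weeks (adjusted p = 0.0373). That call was lost without conventional replicate 1 (-0.57, adjusted p = 0.209) or 2 or wild-type replicate 1 or 2, and with probe sets averaged. Slc6a19, the main neutral amino acid carrier of the small intestine, stayed between 3.76 and 4.53 on all 27 arrays and was never called.

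Of the remaining amino acid carriers, Slc1a5, the glutamine carrier ASCT2, fell by a small amount. It read 8.43, 8.52 and 8.60 in conventional knockouts at 9 weeks and 8.99, 9.07 and 9.00 in wild types, a fall by 0.50 ± 0.13 (adjusted p = 0.00678, limma) that stood with each array left out. In SPF knockouts at 12 weeks it fell by 0.38 ± 0.13 (adjusted p = 0.023), a call lost without SPF replicate 3 (-0.24, adjusted p = 0.188) or wild-type replicate 1. That SPF call was also lost with probe sets averaged. Slc1a1, the glutamate carrier EAAT3, fell by 0.83 ± 0.23 in conventional knockouts at 9 weeks (adjusted p = 0.0123) and differed by 0.37 ± 0.23 in SPF knockouts at 12 weeks. Slc36a4, a proline and tryptophan carrier, fell by 1.25 ± 0.21 in SPF knockouts at 12 weeks (adjusted p = 0.000171), and Slc36a2 rose in both, by 0.80 ± 0.22 and 0.57 ± 0.22. Slc38a2, the glutamine and alanine carrier SNAT2 that amino acid shortage is known to induce, differed by -0.11 ± 0.11 in each. The 1 Slc38a gene called was Slc38a9, a lysosomal arginine sensor, lower by -0.57 ± 0.14 in SPF knockouts at 12 weeks, where a further probe set for it had the opposite sign.

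**Figure D4:**
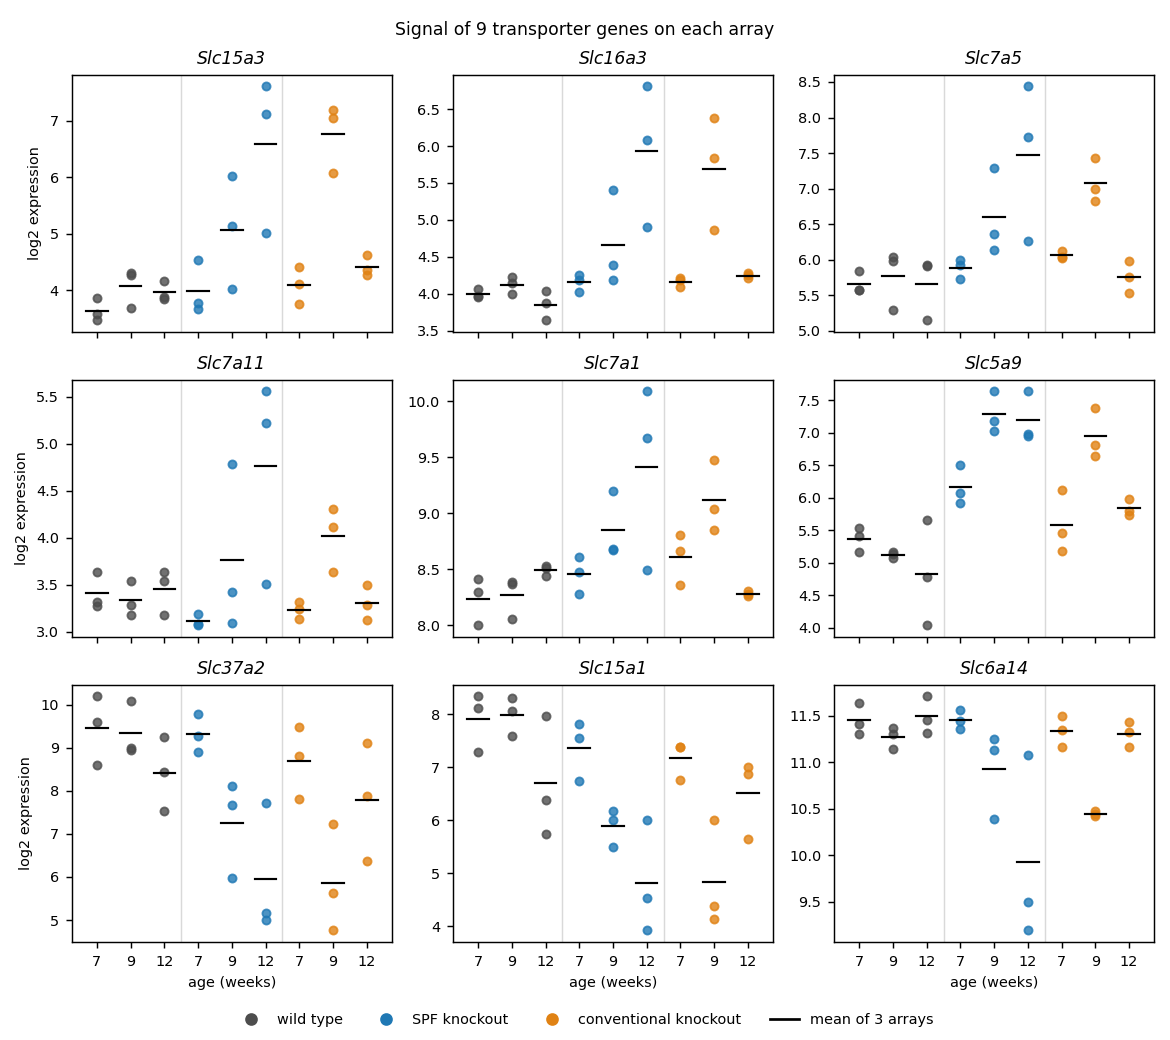
Log2 signal of 9 transporter genes on each array (points) with the mean of 3 arrays (line), for wild types (grey), SPF knockouts (blue) and conventional knockouts (orange) at 7, 9 and 12 weeks; each panel has its own vertical axis, which does not start at 0. Slc15a3 in conventional knockouts lies between 6.07 and 7.19 at 9 weeks and between 4.28 and 4.62 at 12 weeks, while SPF knockouts reach 7.61 at 12 weeks.

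Lining-cell markers were read beside the falls in Slc15a1, Slc5a8, Slc16a1 and Slc6a14. Of 10 colonocyte markers 1 was higher and 2 were lower in conventional knockouts at 9 weeks, and 6 were lower in SPF knockouts at 12 weeks, with medians of -0.289 and -0.799. Their mean log2 level ran from 11.84 to 12.19 against 12.41 to 12.54 at 9 weeks. At 12 weeks it was 11.16, 12.31 and 10.70 in the SPF replicates and 12.19 to 12.44 in wild types, so replicate 2 was again nearest the wild types. Of 7 goblet cell markers 2 and 4 were lower. The part of these cells in the falls of the carriers was not tested.

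Conventional and SPF knockouts were also set against each other and against wild types at each age. At 9 weeks SPF knockouts had 12 members called against wild types (5 higher, 7 lower), or 10.9% beside 11.8% of all genes (7.41% higher, 4.43% lower). Leaving out SPF 9-week replicate 3 left 2 calls, SPF replicate 2 left 7, and wild-type replicates 1, 2 and 3 left 1, 2 and 6, while leaving out SPF 12-week replicate 2 gave 21. Conventional and SPF knockouts of 9 weeks differed in 0 members by limma's test, in which 0 genes in all were called and 15 members had an unadjusted p under 0.05; without SPF 12-week replicate 2, which is in neither group but enters the shared spread, 3 were called. At 12 weeks conventional knockouts had 0 members called against wild types, beside 0.451% of all genes, with 11 members at an unadjusted p under 0.05; without wild-type replicate 1 there were 2. At that age conventional knockouts differed from SPF knockouts in 28 members (17 higher, 11 lower), or 25.5% beside 24.6% of all genes (11.1% higher, 13.6% lower). That count was 18 without conventional replicate 2, 16 without SPF replicate 1 and 12 without SPF replicate 3.

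At 12 weeks Slc15a3 was lower in conventional than in SPF knockouts by -2.16 ± 0.48, Slc16a3 by -1.69 ± 0.35 and Slc7a5 by -1.71 ± 0.37 (adjusted p = 0.00413, 0.00304 and 0.00332, limma). Slc16a9 was higher by 2.20 ± 0.41 and Slc6a14 by 1.39 ± 0.29 (adjusted p = 0.0021 and 0.00317). These 5 calls stood with each array left out. Slc2a1, not called against wild types, was lower in conventional knockouts by -0.33 ± 0.10 (adjusted p = 0.0232), at 10.07, 10.03 and 10.14 against 10.43, 10.17 and 10.64, and lost the call without conventional replicate 1 or 2 or SPF replicate 1 or 3 (-0.22 without SPF replicate 3, adjusted p = 0.189).

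The change of the housing difference from 9 to 12 weeks was tested as an interaction. It was called in 25 members (13 towards higher in conventional knockouts, 12 towards lower), or 22.7% beside 18.6% of all genes (7.93% and 10.7%). The largest were Slc15a3 with -3.87 ± 0.68 and Slc37a2 with 3.21 ± 1.08 (adjusted p = 0.00144 and 0.0422, limma). For Slc37a2 the change was 2.65 (adjusted p = 0.131) without conventional 9-week replicate 1, and 8 of the 27 single omissions ended its call. The count was 14 without conventional 9-week replicate 1, 13 and 15 without SPF 9-week replicates 1 and 2, 16 without conventional 12-week replicate 2 and 14 without SPF 12-week replicate 3.

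Within conventional knockouts 15 members were called between 7 and 9 weeks (8 higher, 7 lower), beside 10.4% of all genes (5.34% higher, 5.1% lower). Between 9 and 12 weeks 9 were called (3 higher, 6 lower), beside 7.34% (1.94% higher, 5.4% lower). Slc15a3 rose by 2.67 ± 0.48 and then fell by 2.35 ± 0.48 (adjusted p = 0.00233 and 0.00803, limma). Slc16a1 fell by 0.67 ± 0.13 and then rose by 0.57 ± 0.13 (adjusted p = 0.00466 and 0.0162). The later comparison uses the same 9-week arrays as the earlier one, so opposite signs are not independent. Slc15a3 was the 1 named member whose first call stood with each array left out, and no named member's second call did. The first count was 6 without conventional 7-week replicate 1, 4 without conventional 9-week replicate 1 and 29 without SPF 12-week replicate 2. The second was 0, 2 and 18 without conventional 9-week replicates 1, 2 and 3, 1, 1 and 4 without conventional 12-week replicates 1, 2 and 3, and 21 without SPF 12-week replicate 2. SPF knockouts had 0 members called between 9 and 12 weeks by limma, among 0 genes in all, with 25 at an unadjusted p under 0.05, and 11 and 26 were called without SPF 9-week replicate 3 and SPF 12-week replicate 2. Wild types had 0 called between 7 and 12 weeks, beside 0.121% of all genes, with 11 members at an unadjusted p under 0.05.

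At 7 weeks few members were called, while 14 had an unadjusted p under 0.05 between conventional knockouts and wild types and 13 between conventional and SPF knockouts. Their median absolute difference was 0.18 and 0.123, beside 0.117 and 0.092 over all genes. Slc2a5, the fructose carrier GLUT5, read 4.73, 4.55 and 4.95 in conventional knockouts, 5.22, 5.67 and 5.66 in SPF knockouts and 5.52, 5.69 and 5.33 in wild types. It was lower in conventional knockouts than in either, by -0.77 ± 0.14 each (adjusted p = 0.0108 against wild types and 0.0165 against SPF knockouts, limma). Against wild types it was the 1 member called, beside 0.506% of all genes, and the call was lost without conventional replicate 1 or 2 or wild-type replicate 2 (-0.69, adjusted p = 0.107). Against SPF knockouts Slc2a5 and Slc5a1 were called, beside 0.269% of all genes, Slc5a1 by -0.50 ± 0.11 (adjusted p = 0.041). The Slc2a5 call was lost without conventional replicate 1 or 2 or SPF replicate 2 or 3, with an adjusted p of 0.18 without SPF replicate 2, and the Slc5a1 call in 15 of the 27 single omissions (0.387 without SPF replicate 2). SPF knockouts and wild types of 7 weeks differed in 0 members, beside 0.055% of all genes, with 6 at an unadjusted p under 0.05.

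Circadian clock genes separated the 7-week groups in the same way. The clock output gene Dbp read 5.53, 4.87 and 5.03 in conventional knockouts, 10.16, 10.33 and 10.18 in SPF knockouts and 10.06, 10.26 and 10.22 in wild types. Of 17 clock genes 4 were higher and 7 lower in conventional knockouts than in wild types at that age. At 9 weeks 1 was higher and 3 lower in conventional knockouts, and 2 higher and 6 lower in SPF knockouts, than in wild types. Dbp then read 5.0, 5.76 and 7.05 in conventional knockouts, 4.78, 5.02 and 3.90 in SPF knockouts and 6.68, 6.60 and 6.97 in wild types. At 12 weeks 1 was higher and 7 lower in SPF knockouts than in wild types, and Dbp read 3.83, 4.59 and 4.34 against 9.12, 9.94 and 5.93. The part of the clock genes in the differences of Slc2a5 and Slc5a1 and of the 9-week and 12-week members was not tested.

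For genes with several probe sets the choice of the brightest one matters in some cases. Of the 34 members called in conventional knockouts at 9 weeks, 14 had further probe sets and 1, Slc7a1, had a dim one of the opposite sign, at -0.012. Of the 39 called in SPF knockouts at 12 weeks, 18 had further probe sets and 6 had one of the opposite sign: Slc16a1, Slc16a4, Slc16a5, Slc1a3, Slc38a9 and Slc7a14. Slc7a6os, named for the strand opposite Slc7a6, was called higher with it at 9 weeks, by 0.49 ± 0.15 and 0.38 ± 0.14. The files do not show which transcripts each probe set meets, so the signals of these neighbours were not separated.

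Slc genes of all other families were a reference for the members. Of 225 such genes, 16% were called in conventional knockouts at 9 weeks against 30.9% of the members, 35.1% against 35.5% in SPF knockouts at 12 weeks, and 24% against 25.5% between conventional and SPF knockouts at 12 weeks. These shares describe the lists and were not tested against each other. In non-overlap of the 3 arrays of each group, 50 members (18 higher, 32 lower) separated conventional knockouts from wild types at 9 weeks, beside 42.5% of all genes, and 34 (12 higher, 22 lower) separated SPF knockouts from wild types at 12 weeks, beside 33.5%. Likewise 38 members separated SPF knockouts from wild types at 9 weeks, beside 37.4%, and 26 separated conventional from SPF knockouts at 12 weeks, beside 31.1%.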

How the data were processed

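Full-thickness mouse colon RNA was hybridised to single-colour Affymetrix arrays, and the authors normalized the signals with affyPLM, per the labels' series text. For its version, background and summary settings nothing was found in the sources used here. That text calls the array a rat one, whereas the deposited identifiers belong to a mouse array. Values were used as deposited, on the log2 scale. The table has 45101 probe sets, of which 64 are controls, 34945 name 1 gene, 932 several and 9160 none; a platform annotation table gave the names. Each gene was read from its brightest probe set on average, so 110 of 204 member probe sets were used, and 56 members had only 1. limma 3.58.1 (R 4.3.3) fitted 9 group means on 27 arrays (18 residual degrees of freedom) with no covariates, and adjusted p-values by Benjamini-Hochberg over all genes, after a test on simulated data. Tables and plots used Python 3.11.15, pandas 2.3.3, NumPy 2.4.6 and matplotlib 3.10.9.

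Named genes were the up to 6 greatest rises and 6 greatest falls among called members of each comparison at 1 age, up to 3 each way for the age comparisons and the interaction, the 10 brightest members, and a list of carriers known for the gut; the text gives part of these, and other members it names were chosen after their values were seen. Of the pathway lists, genes with small adjusted p-values are named, with Dbp, S100a8, Txnip, Emb, Asns, Ddit3, Psat1, Phgdh, Ido1 and Nos2 chosen after their values were seen. The members, gene lists and tests were chosen with earlier results of these data known. Alternatives were a replicate block, quantile normalization, median centring, dropping the 40% dimmest genes, averaging the probe sets of a gene, each array left out in turn (counts and genes named by the rule only), and, chosen after seeing the data, leaving out wild-type 7-week replicate 1, whose pancreas acinar markers had a mean of 8.35 against 6.35 and 5.97 in its group, together with wild-type 12-week replicate 2. Promoter windows come from RefSeq tables of GRCm38.p6, and 82 of 110 members matched. Same-numbered replicates were not taken as pairs: of 27 same-numbered pairs, 4 had a correlation of deviations over 0.1.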

Additional observations from a re-analysis of the deposited data

Results flagged for a closer look

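The difference between conventional and SPF knockouts changed from 9 to 12 weeks by the interaction test of limma in 25 members. Among the named members that passed, the conventional-minus-SPF difference moved up with age for Slc37a2 by 3.21, Slc16a9 by 2.80, Slc15a1 by 2.74, Slc6a14 by 1.86, Slc5a8 by 0.83 and Slc16a1 by 0.82 on the log2 scale. It moved down for Slc15a3 (-3.87), Slc16a3 (-2.72), Slc7a5 (-2.20), Slc7a11 (-1.71), Slc3a2 (-0.74) and Slc2a1 (-0.58). The calls of Slc15a3, Slc16a1, Slc16a3, Slc16a9, Slc2a1, Slc6a14 and Slc7a5 stood with each single array left out, and those of the other 5 did not. With probe sets averaged per gene, Slc16a1 lost its call.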

How the results depend on the processing

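Counts of called members moved mostly when an array was left out. Over all single omissions the count ran from 0 to 1 at 7 weeks, 15 to 39 at 9 weeks and 0 to 2 at 12 weeks for conventional knockouts against wild types. For SPF knockouts against wild types it stayed at 0 at 7 weeks and ran from 1 to 21 at 9 weeks and from 25 to 46 at 12 weeks. For conventional against SPF knockouts it ran from 0 to 2, 0 to 3 and 12 to 38 at these ages. For the ages it ran from 4 to 29 (conventional, 9 against 7 weeks), 0 to 21 (conventional, 12 against 9), 0 to 26 (SPF, 12 against 9) and 0 to 1 (wild types, 12 against 7), from 0 to 8 for conventional 9-week against SPF 12-week knockouts, and from 13 to 36 for the interaction.

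Of the other settings, dropping the 40% dimmest genes gave 0 calls at 7 weeks between conventional knockouts and wild types. Between conventional and SPF knockouts of that age it gave 1, averaging probe sets gave 1 and the replicate block gave 0. Averaging probe sets gave 7 calls at 9 weeks between SPF knockouts and wild types. With the replicate number as a block, 30 members were called at 9 weeks in conventional and 37 at 12 weeks in SPF knockouts against wild types, close to the main counts of 34 and 39; correlations of same-numbered arrays ran from -0.438 to 0.2638, so the numbers do not show a pairing. With the 2 doubted wild-type arrays left out the counts were 33 and 34. Of 90 called results on named members, 36 kept their call in every single omission and 54 lost it in at least 1. The 1 result that turned its sign was Slc16a1 between conventional and SPF knockouts at 12 weeks, at -0.01241 (adjusted p = 0.947, limma) with its probe sets averaged, 1 of which is dim. The cause of the other changes was not tested. The 47 members with a low mean signal limit what a fall could show.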
